A study of Sus scrofa with 13 samples.

Results

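CXC chemokines are small secreted proteins that direct leukocytes, and this account covers 10 of their genes and receptor genes in pig liver, chosen by symbol. They were the ligands CXCL2, CXCL8, CXCL9, CXCL10, CXCL12, CXCL14 and CXCL16 and the receptors CXCR2, CXCR4 and ACKR3. Of these, 8 had a row in the count table of 35670 genes, and all 8 were among the 16481 genes that passed the filter on low counts. CXCL16 and CXCR2 had no row under their symbols and were not analysed here.

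The study compared 2 routes of infusing human bone marrow-derived mesenchymal stromal cells (BM-MSCs) after liver ischemia–reperfusion injury in female Yorkshire pigs, whose age is not given in the sources used here. Baseline (n = 2, replicates 1a and 2) was liver tissue taken before any clamping and without cells. Ischemic controls (n = 3) had 45 min of total exclusion of the liver from blood flow and 6 h of reperfusion without cells. Arterial infusion (n = 4) and portal infusion (n = 4) livers had the same ischemia and reperfusion and 3 M (M for mega) human BM-MSCs per kg body weight, given by way of the hepatic artery or of the portal vein after flow was restored. Each library was 1 liver biopsy, and neither the lobe nor the animal behind a baseline library is given in the labels.

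In this family the first cysteines of the protein are separated by a single residue. CXCL2 and CXCL8 carry the glutamate-leucine-arginine motif and attract neutrophils through CXCR2, while CXCL9 and CXCL10 are induced by interferon gamma and attract activated T cells and natural killer (NK) cells through CXCR3. CXCL12 is made continuously by stromal and endothelial cells, retains and recruits cells that carry CXCR4, and is removed from the tissue by ACKR3, a scavenging receptor that does not signal through G proteins. In injured liver the neutrophil chemokines are known as early signals from resident macrophages and parenchyma, and CXCL12 with CXCR4 is known for the homing of leukocytes and progenitor cells.

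CXCR4 was the member that differed most between livers at 6 h and baseline, with a fitted level 7.27-fold higher. Its count was above both baseline libraries in 11 of 11 livers. Of all tested genes, 7.27% did not overlap between these groups, in either direction. Its ligand CXCL12 differed little between groups, and none of the neutrophil or interferon-induced chemokines separated the 11 livers from baseline. No member separated infused from control livers or the arterial from the portal route. Only 0.564% and 1.41% of all tested genes did so, so that a count of 0 among 8 members says little about them. A normalized count here is the raw count divided by the library's size factor from DESeq2, and fold changes come from edgeR's quasi-likelihood test with all 13 libraries in 1 fit. At an adjusted p of 0.05 that test called 0 of 16481 genes (0%) in each of the 4 comparisons, and so 0 of 8 members.

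The libraries held between 18975413 and 35949178 counted reads, with a median of 30260803. The share of tested genes without a read ran from 1.78% in baseline 1a to 16.2% in portal 4 and 20.8% in portal 1, and mitochondrial genes took 4.51% to 22.0% of the reads. Arterial 1, control 2, portal 1 and portal 4 stood apart in an earlier analysis of these libraries, so that some values are also given without them. The basis of that choice is not given here. Arterial 2, which was kept, had more tested genes without a read (9.19%) than control 2 (7.40%). All 12 hepatocyte markers had reads in every library, as the label liver requires.

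The 4 inflammatory ligands lie near each other on chromosome 8 of the pig assembly Sscrofa11.1, by the RefSeq annotation, with CXCL8 (ENSSSCG00000008953) at 69932646 to 69935861, CXCL2 (ENSSSCG00000008959) at 70157253 to 70159145, CXCL9 (ENSSSCG00000032777) at 71665541 to 71670236 and CXCL10 (ENSSSCG00000032474) at 71693641 to 71695948. CXCL12 (ENSSSCG00000034973) is on chromosome 14 at 91516383 to 91543857, and CXCL14 (ENSSSCG00000014310) is on chromosome 2 at 137803988 to 137813118. The receptors CXCR4 (ENSSSCG00000039416) and ACKR3 (ENSSSCG00000016322) are both on chromosome 15, at 15663652 to 15666706 and 136370457 to 136382559.

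CXCL2, a neutrophil chemokine of the immediate inflammatory response, was at 16.2 and 44.3 normalized counts in baseline 1a and 2. The ischemic controls 1 to 3 held 99.7, 289 and 76.6. Arterial livers 1 to 4 held 43.7, 199, 25.1 and 51.3, and portal livers 1 to 4 held 76.8, 391, 31.1 and 0. The 3 controls were above both baseline libraries, and the infused livers covered a range from below baseline to above the highest control. Against baseline, the 11 livers at 6 h were at 1.92 ± 1.44 on the log2 scale (SE; adjusted p = 0.868, edgeR), and controls alone were at 2.33 ± 1.61 (adjusted p = 0.978, edgeR). The first value ranged from 1.29 without portal 2 to 2.76 without baseline 2, and the second from 1.58 without control 2 to 3.17 without baseline 2. Infused livers differed from controls by −0.61 on the log2 scale, with a 95% interval from −2.86 to 1.64. This difference was 0.13 without control 2 and 0.66 without the 4 libraries that stood apart, so that it carried no direction.

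The CXCL2 count of 0 in portal 4 had an upper limit of 3 reads, or 3.68 normalized counts. In that library, 6.02% of 1745 genes of like level had no read, against a median of 0.143% in the other libraries. The part of these missing genes in the CXCL2 value was not tested.

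CXCL8, the classical neutrophil chemokine also called interleukin-8, was at 15.4 and 79.1 normalized counts at baseline. Controls held 78.3, 33.3 and 95.4, arterial livers 13.4, 56.6, 26.0 and 99.5, and portal livers 0, 58.8, 10.0 and 58.9. Every group overlapped every other, and the baseline pair alone spanned most of the range. The fold change of 6 h livers against baseline was 0.02 ± 1.18 (SE) on the log2 scale, and it turned to −0.73 without baseline 1a and to 1.57 without baseline 2. Infused livers were at −0.84 ± 0.98 (SE) against controls (adjusted p = 1.00, edgeR), with a 95% interval from −2.94 to 1.26. The 0 in portal 1 allowed up to 3.78 normalized counts, and 32.1% of 1454 genes of like level were at 0 in that library. The genes most like CXCL8 over the 13 libraries were TRABD2B, SEMA3G, a secreted semaphorin, and MYO5A, a myosin motor, with Pearson r of 0.92, 0.92 and 0.91 in log2 CPM. CXCL2 was not among its neighbours, with an r of 0.09.

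**Figure D1:**
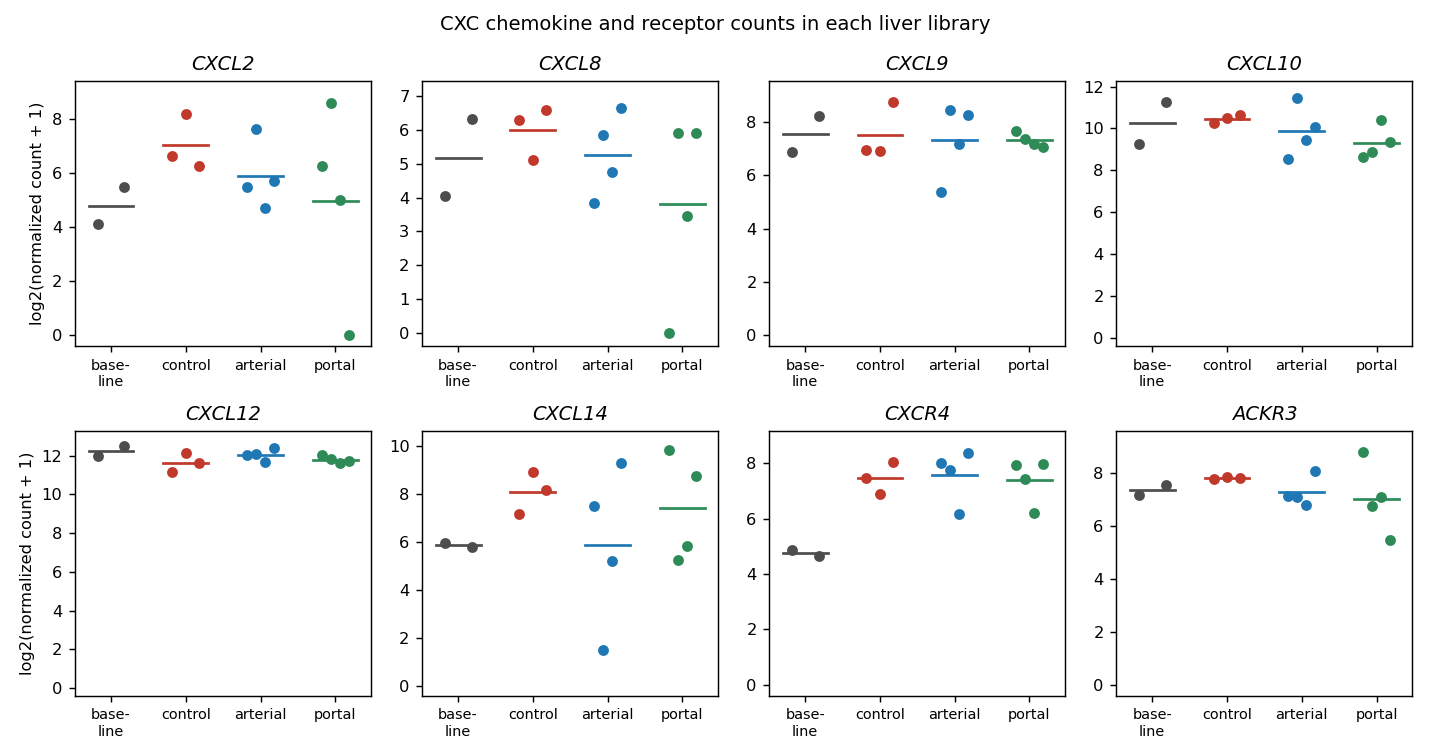
Each panel shows 1 gene, with log2(normalized count + 1) on the vertical axis, the 4 groups on the horizontal axis, 1 point per library and the group mean as a line. CXCR4 is the panel in which all 11 points at 6 h lie above the 2 baseline points. In CXCL12 the groups overlap, and CXCL2, CXCL8 and CXCL14 scatter widely.

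CXCL9, an interferon gamma target that attracts T cells, was at 117 and 297 normalized counts at baseline. It was at 122, 121 and 428 in controls, at 41.0, 352, 144 and 307 in arterial livers and at 200, 166, 143 and 132 in portal livers. Control 3 was the highest library and arterial 1 the lowest, and the groups overlapped throughout. Fold changes on the log2 scale were −0.09 ± 0.67 (SE) for 6 h livers against baseline and −0.31 ± 0.58 (SE) for infused livers against controls. The first was 0.68 without baseline 2, and the second was 0.55 without control 3.

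CXCL10, the related chemokine induced by both types of interferon, was at 607 and 2474 normalized counts at baseline. The 3 controls were close to each other at 1213, 1434 and 1591, while arterial livers held 367, 2827, 690 and 1085 and portal livers 396, 475, 1371 and 648. Of the 8 infused livers, 6 were below the lowest control, 1 was above the highest and 1 was within the control range. Against controls they were at −0.59 ± 0.56 (SE) on the log2 scale (adjusted p = 1.00, edgeR), with values from −0.99 to −0.44 when single libraries were left out and −0.23 without the 4 libraries that stood apart. The arterial route was at 0.77 ± 0.60 (SE) against the portal route, and at −0.0022 without arterial 2. Over 13 libraries CXCL9 and CXCL10 had a Pearson correlation of 0.64 in log2 CPM and a Spearman correlation of 0.51, the largest Pearson value among the 28 pairs of members. The genes most like CXCL10 were CHIC2, CDKN1A, a cell cycle inhibitor, and TPH1, an enzyme of serotonin synthesis, with Pearson r of 0.84, 0.83 and 0.82.

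The other interferon-induced genes were read from a list of 26, of which 24 were tested, with neither CXCL9 nor CXCL10 on it. Against the portal route, 5 of 24 were higher and 19 lower after arterial infusion, with 7 at an unadjusted p under 0.05 (2.40% of all genes) and 0 past the adjusted threshold. The median log2 fold change was −0.77 in the list and 0.04 over all genes. Among its most abundant members, MX1, an antiviral GTPase, was at −2.92 ± 1.21 (SE) and OAS2 was at −1.65 ± 0.75, the latter a sensor of double-stranded RNA. The summed list reached 119032 normalized counts in portal 3, against 13201 to 26715 in the other portal livers and 16525 to 20562 in arterial livers. Without portal 3 the median was 0.32, and without the 4 libraries that stood apart it was −1.16. CXCL10 was also highest among portal livers in portal 3, at 1371, whereas CXCL9 was at 143 there.

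CXCL11, the third ligand of CXCR3, had few reads, with 3.09 and 3.16 normalized counts at baseline, between 9.49 and 41.2 in controls, 6.29 to 37.5 in arterial livers and 0 to 29.4 in portal livers. Its log2 fold change of controls against baseline was 2.85 ± 1.78 (SE), below the threshold (adjusted p = 0.978, edgeR). CXCR3 itself held between 5.02 and 45.4 normalized counts, with baseline at 13.9 and 10.5, and its 6 h difference was 0.68 ± 1.01 (SE).

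CXCL12, the stromal ligand of CXCR4 and ACKR3, was at 4084 and 5731 normalized counts at baseline. Controls held 2249, 4544 and 3136, arterial livers 4129, 4371, 3280 and 5436, and portal livers 4246, 3580, 3164 and 3341. No liver at 6 h was above the higher baseline library, 6 of 11 were below the lower one, and the groups overlapped. The log2 fold change was −0.43 ± 0.32 (SE) for 6 h livers against baseline (adjusted p = 0.868, edgeR; exact permutation p = 0.179, two-sided) and −0.58 ± 0.39 (SE) for controls against baseline. Infused livers were at 0.23 ± 0.30 (SE) against controls, with a 95% interval from −0.40 to 0.86, and the arterial route was at 0.29 ± 0.30 (SE) against the portal route. None of these directions turned when single libraries were left out, but the sizes moved, to −0.21 for 6 h livers without baseline 2 and to 0.044 for infused livers without control 1. Without the 4 libraries that stood apart, infused livers were at 0.51 against controls, and controls were at −0.85 against baseline. The latter was −0.83 without control 2 alone.

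CXCL12 was the most even of the members. Its highest liver at 6 h had 2.42 times the value of the lowest on the normalized count + 1 scale, at percentile 8.31 of the tested genes, for which the median was 7.29. The 3 genes most like it over 13 libraries were SLC17A1, a phosphate transporter, PAN2, a subunit of an mRNA deadenylase, and MCF2L, with Pearson r of 0.88, 0.78 and 0.77 in log2 CPM. Beside it, 11 of 12 endothelial markers were lower at 6 h than at baseline, with a median log2 fold change of −0.69 (−0.37 without baseline 2), 2 at an unadjusted p under 0.05 (4.78% of all genes) and 0 past the adjusted threshold. The summed endothelial list was at 21162 and 26004 normalized counts at baseline and ran from 11029 to 30753 at 6 h. Its Pearson correlation with CXCL12 over 13 libraries was 0.66 (log2 scale), and its part in the CXCL12 values was not tested.

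CXCL14, a chemokine of epithelia whose receptor is not settled, was at 60.2 and 53.8 normalized counts at baseline. Controls held 142, 473 and 280, arterial livers 178, 1.86, 35.7 and 613, and portal livers 900, 37.4, 55.2 and 427. All 3 controls were above both baseline libraries, whereas 4 of 8 infused livers were below the lowest control and 2 were above the highest. Controls were at 2.35 ± 1.59 (SE) against baseline on the log2 scale (adjusted p = 0.978, edgeR). DESeq2 fitted to those 5 libraries alone gave 2.42 with an adjusted p of 0.0246, and DESeq2 over all libraries gave an adjusted p of 1. Infused livers were at −0.17 ± 1.06 (SE) against controls, and the sign turned without control 2, arterial 2 or portal 2 or 3, with at most 0.28. Without the 4 libraries that stood apart it was −1.08.

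The ratio of the highest to the lowest of the 11 livers on the normalized count + 1 scale put CXCL14 at percentile 98.5 of the tested genes. Arterial 2, the lowest, had 2 reads, although only 0.124% of 2411 genes of like level had 3 or fewer reads in that library. Along the libraries CXCL14 was lower where the summed hepatocyte list was higher, with a Pearson correlation of −0.72 over 13 libraries. It was higher where the neutrophil list was higher, at 0.60, and likewise the erythroid list, also at 0.60. Without the 4 libraries that stood apart the 3 values were −0.49, 0.57 and 0.31. The part of any of these lists in the CXCL14 values was not tested.

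CXCR4, the signalling receptor of CXCL12 on leukocytes and progenitor cells, was at 28.5 and 24.3 normalized counts in baseline 1a and 2. The controls 1 to 3 held 177, 117 and 264, the arterial livers 1 to 4 held 260, 216, 70.6 and 333, and the portal livers 1 to 4 held 247, 172, 73.2 and 251. The 2 baseline libraries were the lowest of the 13, and arterial 3 and portal 3 were the lowest at 6 h. Raw counts ran from 23 reads in baseline 2 to 366 in control 3.

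The log2 fold change of CXCR4 in 6 h livers against baseline was 2.86 ± 0.72 (SE; 95% interval 1.33 to 4.40). By p-value it ranked 11 of 16481 genes, and the unadjusted p of 0.00125 became an adjusted p of 0.860 in edgeR. The exact two-sided permutation test over libraries gave p = 0.0128, the smallest that 11 against 2 allows. DESeq2 over all libraries gave 2.90 with an adjusted p of 0.00695 and called 14 genes in this comparison. With single libraries left out the edgeR estimate stayed between 2.70 and 2.99. CXCR4 was 1 of 8 members at an unadjusted p under 0.05, beside 4.78% of all genes, and 1 of 8 whose groups did not overlap, beside 7.27%.

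**Figure D2:**
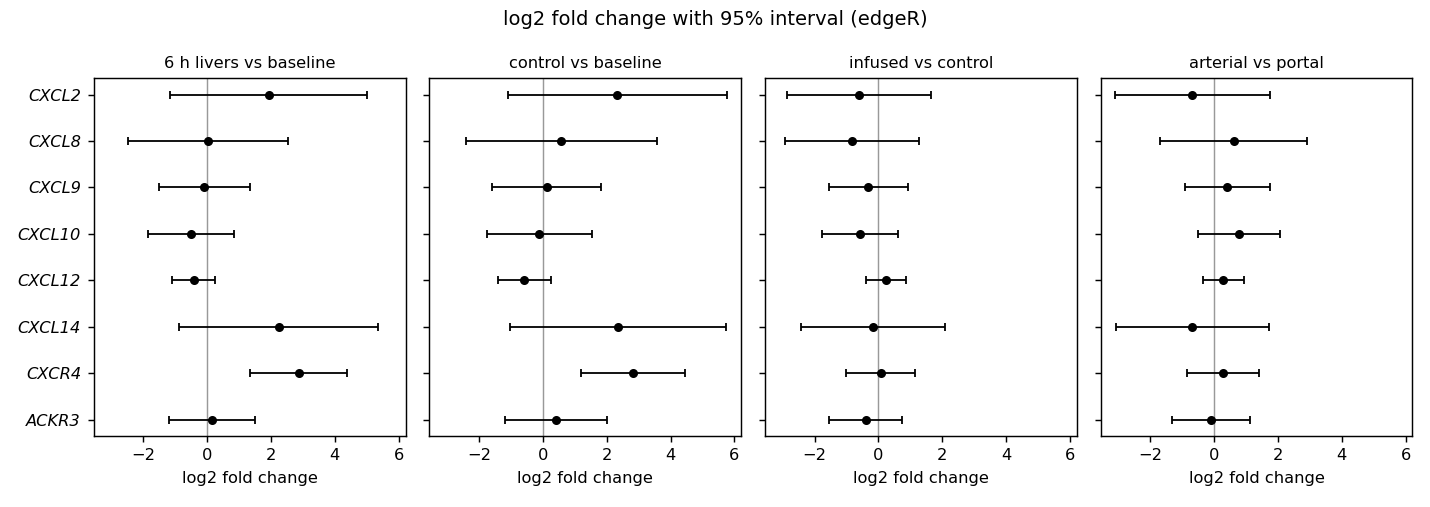
The log2 fold change of each member is plotted on the horizontal axis for the 4 comparisons, 1 panel each, with the 95% interval from edgeR as a bar. Only the CXCR4 intervals against baseline, 1.33 to 4.40 for 6 h livers and 1.18 to 4.46 for controls, leave out 0, and these intervals are not adjusted for the number of genes.

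For controls alone, CXCR4 was at 2.82 ± 0.77 (SE) against baseline (adjusted p = 0.978, edgeR), where 3 against 2 libraries allow no exact p below 0.1. DESeq2 on those 5 libraries gave an adjusted p of 0.00261 and DESeq2 over all libraries 0.122. Both comparisons use the same 2 baseline libraries and the same controls. Between groups at 6 h the values of CXCR4 overlapped, with a wide spread within groups. Mean values were 186 ± 74.0 in controls, 220 ± 111 in arterial and 186 ± 83.4 in portal livers (SD, n = 3, 4 and 4), and the difference of infused livers from controls was 0.06 ± 0.50 (SE), with a 95% interval from −1.01 to 1.14. The arterial route was at 0.28 ± 0.52 (SE) against the portal route, and at 0.72 without the 4 libraries that stood apart. The difference of infused livers from controls turned to −0.19 without control 2 and to −0.48 without the 4 libraries that stood apart.

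Leukocyte markers were compared in the same libraries, since in bulk tissue more cells of a type and more RNA per cell cannot be told apart. Of 12 tested neutrophil markers, 8 were higher and 4 lower at 6 h than at baseline, with a median log2 fold change of 0.84 (−0.01 over all genes), 3 at an unadjusted p under 0.05 (4.78% of all genes) and 0 past the adjusted threshold. S100A8 and S100A12, calcium-binding proteins abundant in neutrophils, were at 3.11 ± 1.30 and 2.68 ± 1.06 (SE), and CSF3R, the receptor of granulocyte colony-stimulating factor, was at 0.82 ± 0.74. All 14 tested T and NK cell markers were higher at 6 h, with a median of 0.32 (0.13 without control 3), and NKG7, a granule protein of cytotoxic cells, was at 1.52 ± 0.70 (SE). CD4, the co-receptor of helper T cells, was at 0.33 ± 0.49 and IL2RB, a receptor subunit for interleukin-2, at 0.0044 ± 0.50, so that the direction of the latter carried no size. That count became 13 of 14 without the 4 libraries that stood apart, and the neutrophil count became 9 of 12.

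The summed neutrophil list was at 1712 and 1824 normalized counts at baseline, 2169 to 14007 in controls, 1373 to 10358 in arterial livers and 1676 to 4283 in portal livers. Of the 18 neutrophil markers listed, 13 had a row, and 4 of these were at 0 in at least 1 library. These were the granule genes ELANE (elastase), MPO (myeloperoxidase), PGLYRP1 and CD177. LTF and MMP8, also granule genes, had reads in every library. Over 13 libraries CXCR4 had a Pearson correlation of 0.61 with this sum and of 0.50 with the T and NK cell sum, on the log2 scale. The erythroid sum, which is not a leukocyte list, was also at 0.50. Arterial 3 and portal 3 had neutrophil sums of 1373 and 1676, below both baseline libraries, and T and NK cell sums of 1552 and 1775, within the baseline range of 1484 to 1871. CXCR4 was at 70.6 and 73.2 in these livers, the lowest values at 6 h, and at 28.5 and 24.3 at baseline. These livers were picked after their values were seen, and the part of leukocyte content in the CXCR4 difference was not tested.

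**Figure D3:**
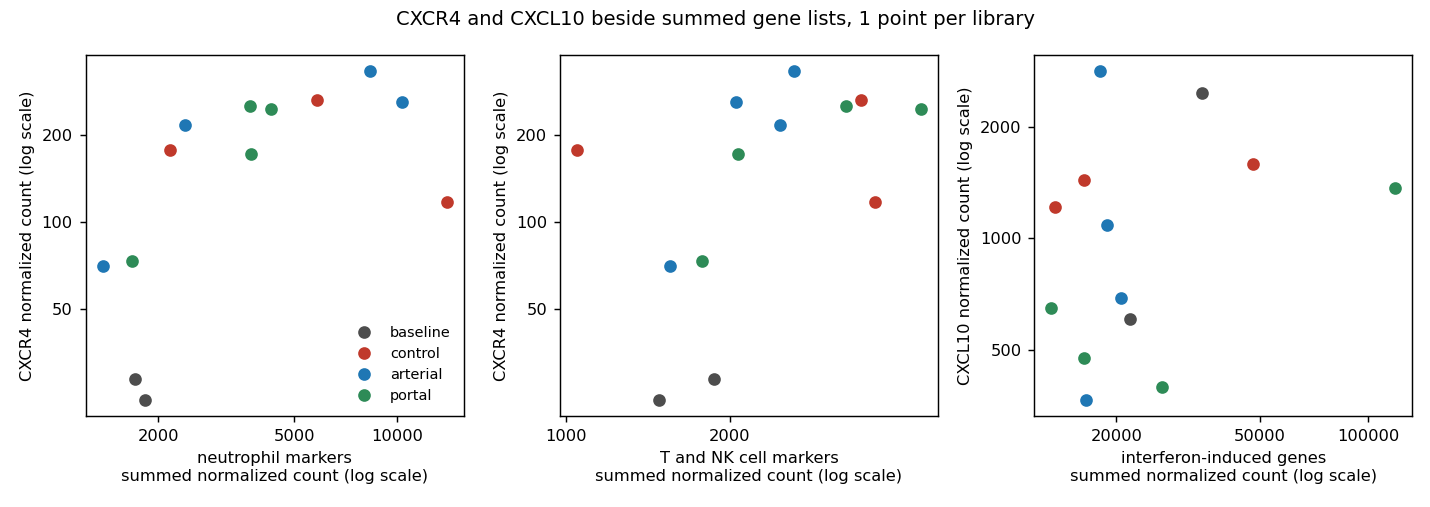
Each point is 1 library, with a summed normalized count of a gene list on the horizontal axis and the normalized count of CXCR4 (left and middle) or CXCL10 (right) on the vertical axis, both on log scales. Arterial 3 and portal 3 lie near the baseline points on the neutrophil axis and above them on the CXCR4 axis, and portal 3 lies alone at 119032 on the interferon axis.

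The genes most like CXCR4 over 13 libraries were MBNL3, an RNA-binding protein, RGS1, a regulator of G-protein signalling in lymphocytes, and SLA, an adaptor of antigen receptor signalling. Their Pearson r was 0.94, 0.90 and 0.90 in log2 CPM. Without the 4 libraries that stood apart it was 0.97, 0.96 and 0.97 over 9 libraries. All of these points share the 2 low baseline libraries.

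ACKR3, the scavenging receptor of CXCL12, was at 143 and 186 normalized counts at baseline. Controls were at 214, 226 and 220, from 270, 129 and 305 reads, with a coefficient of variation of 2.80%. Read numbers of this size carry counting error, so this narrow range need not show an even level. Arterial livers held 140, 136, 110 and 269, and portal livers held 439, 107, 135 and 42.9. Controls were above both baseline libraries, and of the 8 infused livers 6 were below the narrow control range and 2 above it. The log2 fold change was 0.42 ± 0.75 (SE) for controls against baseline (exact permutation p = 0.1, two-sided, the smallest that 3 against 2 allows) and −0.40 ± 0.54 (SE) for infused livers against controls (adjusted p = 1.00, edgeR). Without portal 1 the latter was −0.81. For 6 h livers against baseline it was 0.15 ± 0.63 (SE), and −0.12 without portal 1.

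Counts of both receptors were set against CXCL12 within each library, which removes the depth of the library but not the length of the genes. CXCR4 had 0.699 and 0.423 reads per 100 CXCL12 reads at baseline. It had 7.88, 2.58 and 8.43 in controls, 6.29, 4.95, 2.15 and 6.13 in arterial livers, and 5.81, 4.80, 2.31 and 7.53 in portal livers. The lowest liver at 6 h was thus above the higher baseline library. This followed from the CXCR4 counts already given, since no liver at 6 h had CXCL12 above the higher baseline library. It is not a separate result. ACKR3 had 3.51 and 3.24 reads per 100 CXCL12 reads at baseline and 1.29 to 10.3 at 6 h, with the 3 controls at 9.50, 4.97 and 7.03 and the groups of infused livers overlapping baseline. Set against ACKR3, CXCR4 had 19.9 and 13.1 reads per 100 at baseline and from 51.9 in control 2 to 586 in portal 4 at 6 h.

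**Figure D4:**
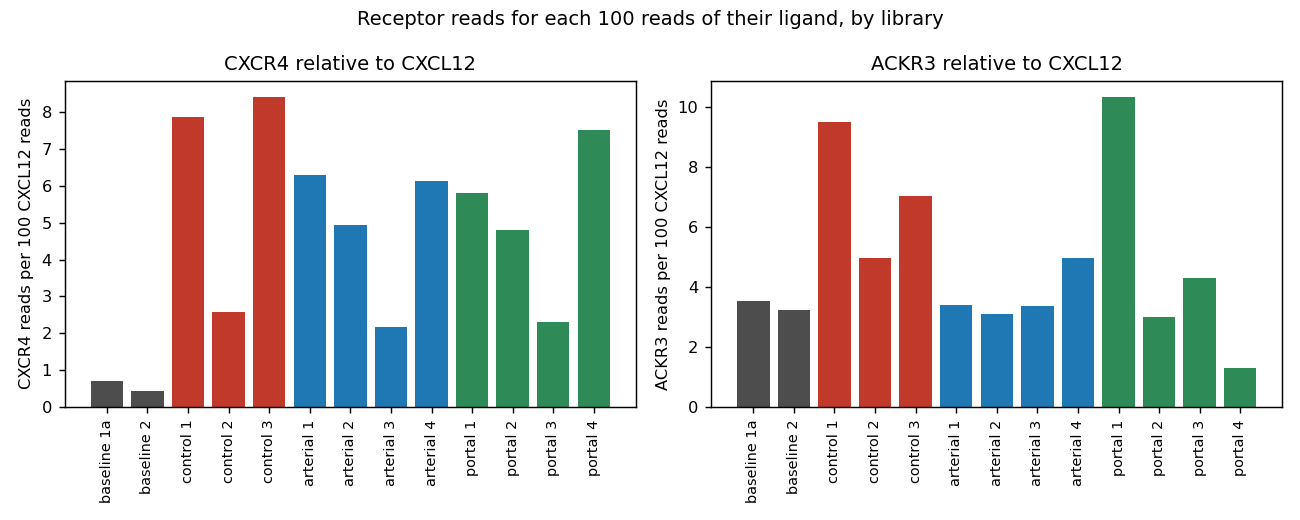
Bars give CXCR4 reads (left) and ACKR3 reads (right) for each 100 CXCL12 reads in the 13 libraries, coloured by group. CXCR4 bars are below 0.70 in both baseline libraries and at least 2.15 at 6 h, while ACKR3 bars of infused livers lie on both sides of the baseline bars.

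Across the 8 members, 4 did not overlap between controls and baseline, namely CXCL2, CXCL14, CXCR4 and ACKR3, all higher in controls. That share of members stands beside 31.1% of all tested genes, and 1 member was at an unadjusted p under 0.05, beside 4.37%. The median log2 fold change of the members was 0.50 against 0.00 over all genes in this comparison, and 0.09 against −0.01 for 6 h livers against baseline. Between infused livers and controls, 0 of 8 members did not overlap (0.564% of all genes) and 0 were at an unadjusted p under 0.05 (2.14%). The members' median was −0.36 against −0.02 over all genes. Between the arterial and the portal route both counts were 0 of 8 as well, beside 1.41% and 2.40% of all genes, and the median was 0.28 against 0.04.

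Of 17 further CXC ligands and receptors on a list, 9 had a row and 8 were tested, with 0 called in any comparison. ACKR2, which mostly scavenges inflammatory CC chemokines, was the only one of the 8 at an unadjusted p under 0.05. This was in arterial against portal livers, where 2.40% of all genes were under it, and ACKR2 was at 1.42 ± 0.46 (SE; adjusted p = 1.00, edgeR). It was at 530, 778, 438 and 388 normalized counts in arterial livers and at 220, 157, 292 and 136 in portal livers. These groups did not overlap, as in 1.41% of all genes. Controls held 411, 1070 and 283 and baseline 267 and 626, so that 3 of 4 portal values were below and all 4 arterial values within the range of the livers without cells. The platelet chemokine PPBP had at most 8 reads in any library and was not tested. ACKR4, a scavenger of homeostatic CC chemokines, was at 31.6 and 36.9 normalized counts at baseline and lower in all 11 livers at 6 h. It was at 6.33, 1.75 and 5.78 in controls, at 0, 17.6, 21.9 and 11.5 in arterial livers, and at 0 in portal 1 and 4 and at most 12.1 in the other portal livers. The groups did not overlap, as in 7.27% of all genes, and the log2 fold change was −2.22 ± 1.33 (SE; adjusted p = 0.860, edgeR). Its low counts limit that value, and the 3 zeros fell in libraries that stood apart. AMCF-II, a pig neutrophil chemokine, CXCR5, CXCR6 and ACKR1 gave differences from −1.25 to 1.05, each within 2 SE of 0.

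Genes of chemokine signalling and processing (22 tested) were higher in controls than at baseline in 14 and lower in infused livers than in controls in 18, with medians of 0.34 and −0.27 and 0 called in either. The latter became 20 of 22 without the 4 libraries that stood apart, with a median of −0.45, and the median was −0.09 without control 3. Of its most abundant members, CD74, the invariant chain that also binds a macrophage cytokine, was at 1.58 ± 0.84 (SE) for 6 h livers against baseline, GNAI2, a G protein subunit coupled to chemokine receptors, was at 0.67 ± 0.50 and GNB1, another G protein subunit, was at 0.40 ± 0.35. Of 19 early response genes of NF-kB, which drives CXCL2 and CXCL8, 14 were higher in controls than at baseline, with a median of 0.72 (0.00 over all genes), 6 at an unadjusted p under 0.05 (4.37% of all genes) and 0 called. BCL3, a co-regulator of NF-kB, was at 1.07 ± 0.46 (SE), BIRC3, an inhibitor of apoptosis, was at 0.72 ± 0.83, and SOD2, the mitochondrial superoxide dismutase, was at −1.37 ± 1.00. Without the 4 libraries 11 of 19 were higher, with a median of 0.13, which was also the median without control 2 alone. Between infused livers and controls 14 of 19 were lower, with a median of −0.39, against 8 of 19 without the 4 libraries, where the median was 0.24. It was −0.67 without control 3 and −0.09 without control 2.

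Kupffer cells and macrophages, which make neutrophil chemokines, had 9 of 11 markers lower in infused livers than in controls, with a median of −0.64 (−0.02 over all genes), 4 at an unadjusted p under 0.05 (2.14% of all genes) and 0 called. C1QA, C1QB and C1QC, the chains of complement C1q, were at −1.18 ± 0.30, −1.12 ± 0.30 and −0.98 ± 0.30 (SE). Their sum with the other markers was 38361 to 66143 normalized counts in controls, 26296 to 35889 in arterial, 25248 to 33246 in portal and 25512 to 39875 in baseline livers. No infused liver reached the lowest control in this sum. Without the 4 libraries 8 of 11 markers were lower, with a median of −0.44. Over 13 libraries the summed macrophage list had Pearson correlations with the members from −0.12 for CXCL12 to 0.34 for CXCL14 (log2 scale). It was at 0.31 with CXCL10 and 0.33 with ACKR3, and at −0.05 and 0.59 without the 4 libraries. The part of these cells in the member values was not tested. Hypoxia genes were split at 6 h, with 11 of 20 higher than at baseline and 0 called.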

How the data were processed

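RNA was measured in 13 pig liver libraries. The authors filtered the reads, aligned them to Sscrofa11.1 (HISAT2), assigned them to Ensembl genes (FeatureCounts) and deposited raw counts without normalization; tool versions are not given in the sources used here. Libraries were non-directional, so overlapping genes on opposite strands cannot be told apart, nor can reads of human cells that map to pig genes. Groups and numbers came from the labels. Counts were tested with edgeR 4.0.16 in R 4.3.3 (filterByExpr, TMM, quasi-likelihood, Benjamini-Hochberg threshold 0.05) over all libraries, with 6 h livers as the mean of 3 group terms. DESeq2 1.42.0 gave size factors and an alternative test, and log2 CPM used a prior count of 2. Exact permutation tests used log2(normalized count + 1). The p-values measure the spread between these libraries. A count of 0 was taken to allow 3 reads, which covers counting error only. Genes were not scaled by length, so levels are compared within a gene. The members, the lists and the rule for named genes (all members, every further CXC gene, the 3 most abundant genes of a list and the 3 genes most correlated with a member) were chosen with earlier results of these data known. Some genes under this rule are not reported here. Neutrophil granule markers were named after their values were seen. The tests were checked on simulated counts, and the gene lists without 4 libraries or single ones were added after seeing the data.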

Additional observations from a re-analysis of the deposited data

Results flagged for a closer look

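On the scale of normalized counts, without logs, arterial 2 stood far from other libraries in 2 chemokines. These were CXCL2, among the arterial livers, and CXCL10, among all infused livers. Its CXCL2 value of 199 normalized counts was separated from the next arterial liver, at 51.3, by 0.849 of the range of the 4 arterial livers. Its CXCL10 value of 2827 was separated from the next of the 8 infused livers, at 1371, by 0.592 of their range, while within the 4 arterial livers its CXCL10 gap did not pass the limit for 4 samples. These were 2 of 24 groups examined, and chance alone marks about 1 in 20 where groups are independent and values are normally distributed. Arterial livers are also among the infused livers and the counts were not logged, so that this rate need not hold here. The gaps were not examined on the log scale. Arterial 2 also had the largest mitochondrial share of the reads, 22.0%, and 2 reads of CXCL14. The part of the mitochondrial share in these values was not tested.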

How the results depend on the processing

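The 8 members gave 32 fold changes, which were recomputed 676 times under other settings. Of these, 628 kept their direction and their side of the threshold, 3 passed the threshold and 45 turned sign. The number of genes past the threshold was 0 in edgeR, also when any single library was left out (0 to 0 in each comparison). For 6 h livers against baseline, controls against baseline, infused livers against controls and arterial against portal livers in turn, DESeq2 over all libraries called 14, 5, 1 and 1, and edgeR without a filter on low counts called 28, 30, 19 and 5. DESeq2 over only controls and baseline called 166, and edgeR without arterial 1, control 2, portal 1 and portal 4 called 1 for infused livers against controls.

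With the replicate block, the values that turned sign were CXCL8 at −0.055 in 6 h livers, CXCL9 at −0.012 and CXCL10 at 0.12 in controls against baseline, CXCR4 at −0.36 in infused livers, and CXCL2 at 0.20 and ACKR3 at 0.085 in arterial livers. The block also moved CXCL8 and CXCL14 in infused livers against controls to −2.35 and −2.36, from −0.84 and −0.17. In 16 pairs with the same number, deviations from the group mean had correlations from −0.42 to 0.43, with 5 above 0.1. These cannot show whether the numbers pair the libraries, since deviations of only 2 baseline libraries mirror each other. The labels do not give the animal behind a baseline library. The block changed no call. Leaving out mitochondrial genes put CXCL8 in 6 h livers at −0.030. Without the 4 libraries, CXCL9 in 6 h livers was at 0.14, CXCL2 and CXCR4 in infused livers were at 0.66 and −0.48, and CXCL14 and ACKR3 in arterial livers were at 2.18 and 0.47. The cause of these turns was not tested.

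Leaving out single libraries turned the sign of some small differences. For 6 h livers the range was −0.73 to 1.57 for CXCL8, −0.61 to 0.68 for CXCL9, −1.20 to 0.77 for CXCL10 and −0.12 to 0.30 for ACKR3. For controls against baseline it was −0.17 to 2.13 for CXCL8, −0.74 to 0.90 for CXCL9 and −0.80 to 1.17 for CXCL10. For infused livers against controls it was −1.55 to 0.13 for CXCL2, −0.64 to 0.55 for CXCL9, −0.94 to 0.28 for CXCL14 and −0.19 to 0.39 for CXCR4. For arterial against portal livers it was −1.63 to 1.20 for CXCL2, −0.0022 to 1.33 for CXCL10, −2.21 to 0.29 for CXCL14 and −0.43 to 0.74 for ACKR3. With 10 counts required in every library, CXCL2, CXCL8 and CXCL14 were not tested. The 2 baseline libraries limit every comparison with baseline, and low counts limit CXCL2, CXCL8 and CXCL11.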
